A study of Homo sapiens with 6 samples.

Results

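The nuclear-coded oxidative phosphorylation genes were taken as every listed gene whose symbol marks a subunit of respiratory complexes I to IV (NDUF, SDH, UQCR, CYC1 and COX4 to COX8 symbols), a numbered complex I assembly factor (NDUFAF) or a subunit of the ATP synthase, complex V (ATP5F1, ATP5M and ATP5P symbols). The rule used names only and gave 93 of the 47470 genes listed. RNA was sequenced from HEK293T, a cell line from human embryonic kidney with the large T antigen of SV40, wild type in genotype in both groups. The groups were 3 untreated libraries and 3 VPA-treated libraries, the latter from cells kept for 1 day in 1 mM valproic acid (VPA), a short branched fatty acid that inhibits histone deacetylases. The study asked how VPA changes gene expression beside its changes in chromatin. The labels number the replicates without naming separate cultures, so p-values measure the spread between these libraries, which may be technical.

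Oxidative phosphorylation takes place in the inner mitochondrial membrane. Complexes I and II pass electrons from NADH and succinate to coenzyme Q, complex III passes them on to cytochrome c and complex IV to oxygen, while complexes I, III and IV pump protons that drive ATP synthesis in complex V. Most subunits are coded in the nucleus and imported, and the nuclear factors NRF1, GABPA (an ETS factor) and YY1 are known for binding the promoters of many of these genes.

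Counts on genes totalled 18622267 to 18828495 per library. Of the 47470 genes, 15298 had enough counts for edgeR's quasi-likelihood test, with Benjamini-Hochberg adjustment over all of them. Replicates were close (biological coefficient of variation 3.83%), and differences well under 1 on the log2 scale could pass in genes with many counts. All values below are TMM-normalized counts (counts set to a common library size with scaling factors trimmed of extreme genes) unless stated. KRT8, KRT18, VIM, PAX2 and LHX1, used to check the epithelial kidney line, were all detected. Their levels differed between the groups, with VIM lower in VPA-treated libraries and the others higher. PAX2 had 30.0, 29.3 and 29.4 normalized counts in untreated and 142.8, 140.6 and 141.7 in VPA-treated libraries. Markers of blood (PTPRC), endothelium (PECAM1), liver (ALB), podocytes (NPHS1) and muscle (MYH7) stayed between 0 and 4.79 normalized counts in every library, and CD68, a lysosomal gene high in macrophages, between 12.4 and 37.8.

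Of the 93 genes, 84 were tested and 9 were not. NDUFA1, NDUFB11 and COX7B lie on chromosome X, where each of the 1437 listed genes that could be placed stands at 0 in all libraries, so their 0 says nothing about the cells. COX4I2, COX6A2, COX7A1 and COX7B2, isoforms known from lung, muscle or testis, were also at 0. COX8C had 2 counts and ATP5MGL 4 counts over the 6 libraries. The 13 subunit genes of the mitochondrial genome are listed at 0 throughout, so subunits coded there were not measured.

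The promoters shown are those of the 3 complex I genes with the lowest log2 fold changes among genes with a promoter sequence (NDUFB2, NDUFS3 and NDUFS6) and that of NDUFS1, the one complex I gene that was higher. Each is 300 bases of RefSeq sequence on GRCh38.p14, from 250 bases before the transcription start to 50 after it. The windows are chr7:140696458-140696757 on the plus strand (NDUFB2), chr11:47578824-47579123 on the plus strand (NDUFS3), chr5:1801157-1801456 on the plus strand (NDUFS6) and chr2:206159395-206159694 on the minus strand (NDUFS1). Capitals mark matches on either strand to an ETS motif (CCGGAAGT), an NRF1 motif (CGCATGCG), a YY1 motif (AAGATGGC) or an SP1 motif (GGGCGG).
NDUFB2: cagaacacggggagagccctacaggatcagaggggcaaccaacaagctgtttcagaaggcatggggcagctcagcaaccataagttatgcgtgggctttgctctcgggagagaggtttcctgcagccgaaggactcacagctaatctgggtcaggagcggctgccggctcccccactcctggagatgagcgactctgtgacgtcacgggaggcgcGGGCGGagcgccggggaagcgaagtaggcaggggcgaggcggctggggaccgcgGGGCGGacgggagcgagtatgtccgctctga
NDUFS3: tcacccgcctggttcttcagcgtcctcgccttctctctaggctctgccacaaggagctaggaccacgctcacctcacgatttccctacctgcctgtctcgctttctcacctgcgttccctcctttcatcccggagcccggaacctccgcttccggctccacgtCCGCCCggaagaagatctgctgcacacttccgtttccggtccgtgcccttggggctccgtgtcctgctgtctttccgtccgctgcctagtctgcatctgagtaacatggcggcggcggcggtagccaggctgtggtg
NDUFS6: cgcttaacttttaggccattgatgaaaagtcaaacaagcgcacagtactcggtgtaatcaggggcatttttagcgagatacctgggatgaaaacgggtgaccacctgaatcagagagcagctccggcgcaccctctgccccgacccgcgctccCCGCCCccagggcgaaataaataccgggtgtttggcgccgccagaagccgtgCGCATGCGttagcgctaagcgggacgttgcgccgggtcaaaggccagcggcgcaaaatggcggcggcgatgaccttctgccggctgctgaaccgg
NDUFS1: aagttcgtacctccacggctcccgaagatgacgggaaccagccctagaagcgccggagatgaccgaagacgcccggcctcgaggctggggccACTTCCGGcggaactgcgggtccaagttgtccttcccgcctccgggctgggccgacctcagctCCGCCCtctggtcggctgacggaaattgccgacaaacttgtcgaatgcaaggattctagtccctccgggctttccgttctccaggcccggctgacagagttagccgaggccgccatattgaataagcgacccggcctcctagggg

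NDUFS6 held 1 NRF1 match and 1 SP1 match, NDUFS1 held 1 ETS and 1 SP1 match, NDUFB2 held 2 SP1 matches and NDUFS3 held 1 SP1 match. Promoters were at hand for 75 of the 93 genes. The ETS letters occurred in 10 of the 75 promoters (13.3%), against 8.27% of 11739 promoters of tested genes and 4.44% of 27305 promoters in all. The NRF1 letters occurred in 11 (14.7%), against 3.86% and 2.19%, and the YY1 letters in 11 (14.7%), against 5.09% and 3.03%. SP1 letters, short and common in GC-rich sequence, occurred in 42 (56.0%), against 69.7% and 44.6%, and the median GC content was 61.0% in the 75 promoters and 65.7% in those of tested genes. At least 1 of the ETS, NRF1 and YY1 motifs stood in 29 of the 75 promoters (38.7%) and in 15.9% of the promoters of tested genes. Of the 75 genes 69 were tested, and in these the shares were 14.5% for ETS, 15.9% for NRF1, 15.9% for YY1 and 58.0% for SP1. The ETS letters stood in 8 of 48 promoters of lower genes (16.7%) and 2 of 21 of the other tested genes (9.52%), the NRF1 and the YY1 letters each in 7 of 48 (14.6%) and 4 of 21 (19.0%), with no test. The median log2 fold change was -0.16 with an ETS match and -0.16 without, -0.17 with an NRF1 match and -0.16 without, and -0.17 with a YY1 match and -0.16 without.

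In VPA-treated cells 57 of the 84 tested genes were lower (67.9%) at an adjusted p under 0.05, where 30.0% of all tested genes were lower. Only 2 were higher, NDUFS1 and COX6B2 (2.38%), where 32.9% of all tested genes were higher, and 25 had no call. The changes were small. The median log2 fold change was -0.16 (0.0058 over all tested genes), the middle range ran from -0.20 to -0.11, and the median standard error of a gene was 0.048. The spread between genes was narrow, with an interquartile range of 0.094 against 0.61 over all tested genes. In 53 genes all 3 VPA-treated libraries lay below all 3 untreated libraries, and in 2 they lay above. The share of all tested genes with groups apart in this way is not given here, so these counts are not read against it. The thresholds of the study also ask for a log2 fold change of 1 or more in either direction. At these COX6B2 was up (12.0% of all tested genes were up). It had passed the count filter only through its VPA-treated libraries. No gene was down by edgeR or DESeq2 (0.503% of all tested genes were down), the lowest log2 fold change being -0.57.

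Abundant genes in general moved the same way. Of the 4643 tested genes whose mean reached 1000 normalized counts, 57.4% were lower and 14.6% higher, with a median log2 fold change of -0.15. The 66 oxidative phosphorylation genes in that class had a median of -0.16, with 47 lower (71.2%) and 1 higher. Among the 6422 genes with a mean from 100 to 1000, 25.4% were lower and the median was 0.050, while 10 of 17 oxidative phosphorylation genes there were lower (58.8%) with a median of -0.16. The part of abundance in these counts was not tested.

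The direction also rests on how the libraries are scaled. With DESeq2 size factors 63 genes were lower and 1 higher, with upper-quartile scaling 31 and 4, with library totals alone 13 and 7. With the cytosolic ribosomal protein genes held level they were 5 and 37. Shares of all tested genes called under these other scalings are not given, here or below, and the shares above hold for TMM only. Of the 80 tested ribosomal protein genes, 75 were lower under TMM, with a median log2 fold change of -0.26. The median of all tested genes moved with the scaling, from -0.0081 with DESeq2 size factors to 0.27 with ribosomal protein scaling. The distance between the median of the 84 genes and that of all tested genes stayed at -0.17 under each of the 5 scalings. A scaling shifts all genes by about the same amount, so this distance could hardly move and is no separate result. The 5 genes that were lower under every scaling were NDUFB2, NDUFS3, NDUFS6, NDUFC1 and SDHD, and COX6B2 was higher under every scaling, while 21 genes were called in both directions. Changes described below are those under TMM.

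**Figure D1:**
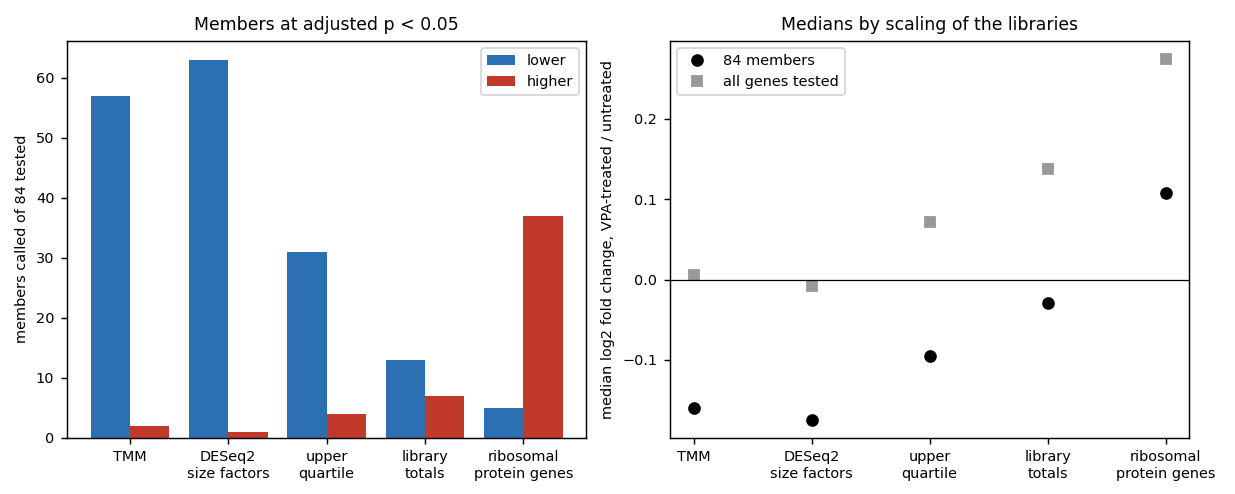
Left, how many of the 84 tested genes were lower (blue bars) or higher (red bars) at an adjusted p under 0.05 under each of 5 scalings of the libraries. Right, the median log2 fold change of the 84 genes (circles) and of all 15298 tested genes (squares). The lower bars fall from 57 under TMM to 5 under ribosomal protein scaling. The circles stay 0.17 below the squares, since a scaling shifts all genes by about the same amount.

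**Figure D2:**
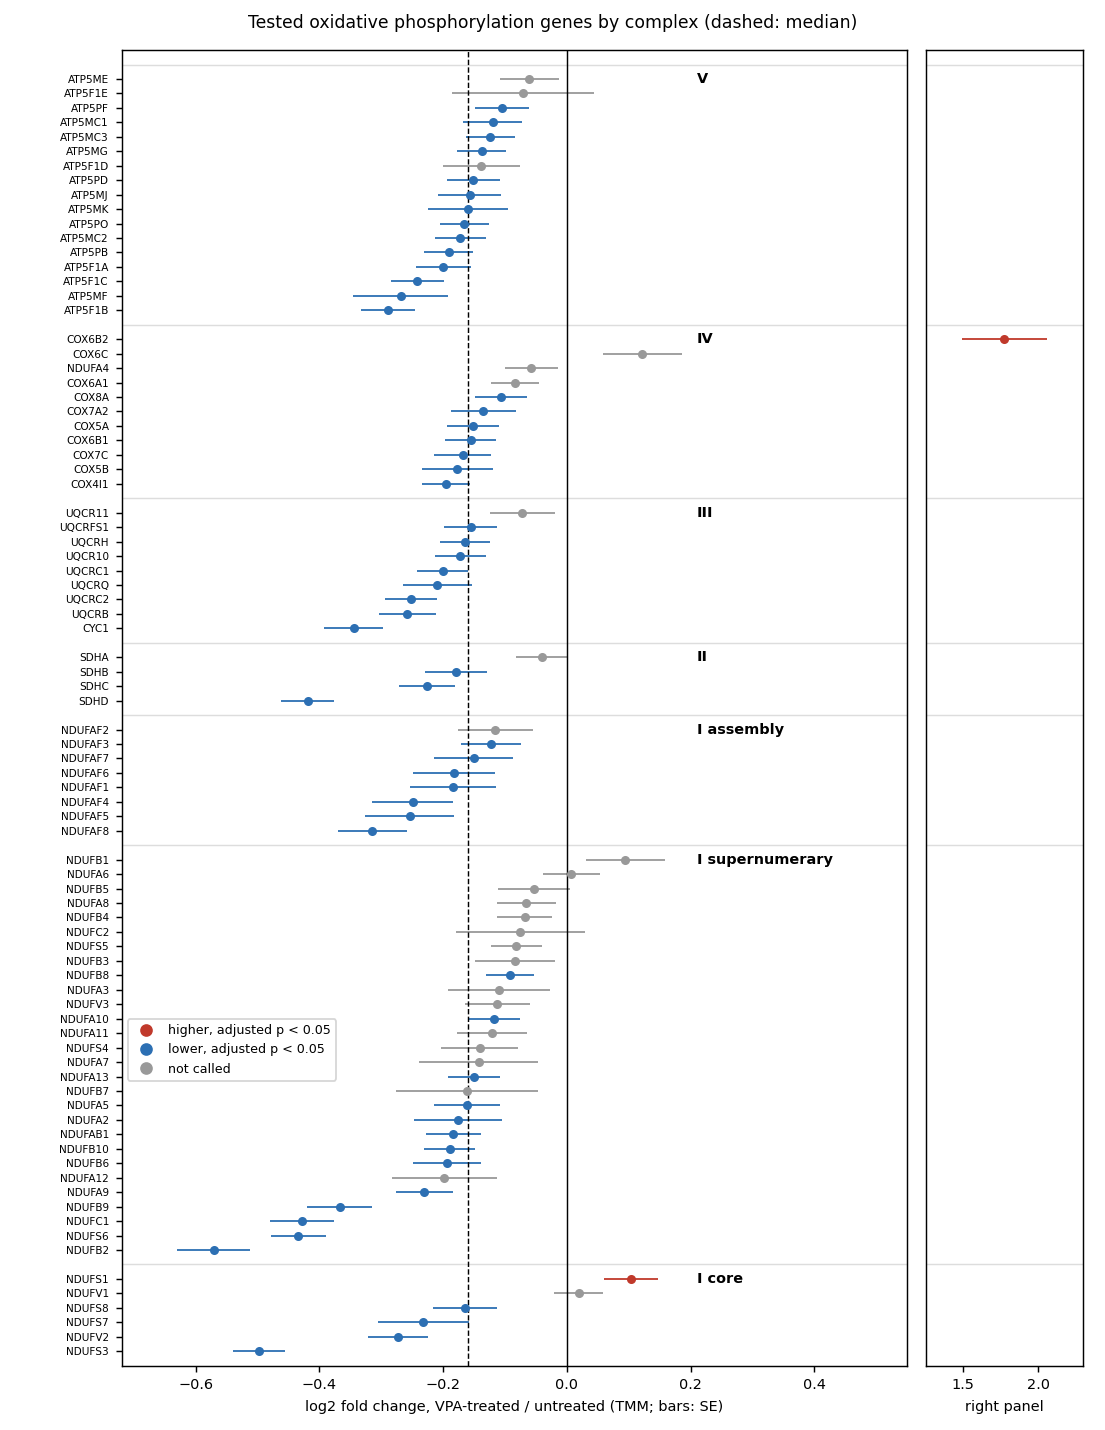
Log2 fold change of 83 of the 84 tested genes, VPA-treated over untreated, with its standard error as a bar, sorted within each complex. Blue marks lower, red higher and grey no call at an adjusted p under 0.05, and the dashed line is the median of -0.16. Most points lie left of 0 near the dashed line, while COX6B2 stands in a separate right panel that starts at a higher value.

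Complex I, the NADH dehydrogenase, had 35 tested subunits, of which 18 were lower and 1 higher (median -0.15). Its 7 nuclear-coded core subunits, which carry the flavin, the iron-sulfur clusters and part of the path to coenzyme Q, had 5 lower and 1 higher genes and a median of -0.23. The 28 supernumerary subunits, which surround the core, had 13 lower genes and a median of -0.14. The 4 genes that fell most were all of complex I.

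NDUFB2, a supernumerary subunit of the membrane arm (RefSeq GRCh38.p14, chr7:140696708-140706643), had 1522, 1461 and 1453 normalized counts in untreated cells and 1114, 941.1 and 930.6 in VPA-treated cells. Its mean fell from 1479 ± 37.7 to 995.4 ± 103 (SD, n = 3 each), which is -0.57 on the log2 scale (SE 0.059, edgeR adjusted p = 3.93e-08). The groups were well apart, with the first VPA-treated library the highest of its group. In the annotation 24.3% of its exon bases overlap NDUFB2-AS1 on the other strand, and the strand setting of the counting is not given in the sources used here, so reads of the pair may be mixed.

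NDUFS3, a core subunit of the arm that reaches into the matrix (chr11:47579074-47584562), had 2216, 2192 and 2195 normalized counts in untreated cells and 1548, 1542 and 1584 in VPA-treated cells. The groups lay far apart beside their spread, and the log2 fold change was -0.50 (SE 0.042, edgeR adjusted p = 1.24e-09). NDUFS6, a supernumerary subunit that binds zinc (chr5:1801407-1816048), had 1826, 1787 and 1794 before and 1349, 1296 and 1357 after VPA, a log2 fold change of -0.43 (SE 0.044, edgeR adjusted p = 2.32e-08). NDUFC1, a small subunit of the membrane arm (chr4:139289917-139302551), had 1191, 1159 and 1142 in untreated and 903.6, 880.4 and 810.9 in VPA-treated libraries, a log2 fold change of -0.43 (SE 0.052, edgeR adjusted p = 3.63e-07). None of these groups overlapped, and each of these genes was lower in all 16 fits tried, the other scalings and left-out libraries included.

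**Figure D3:**
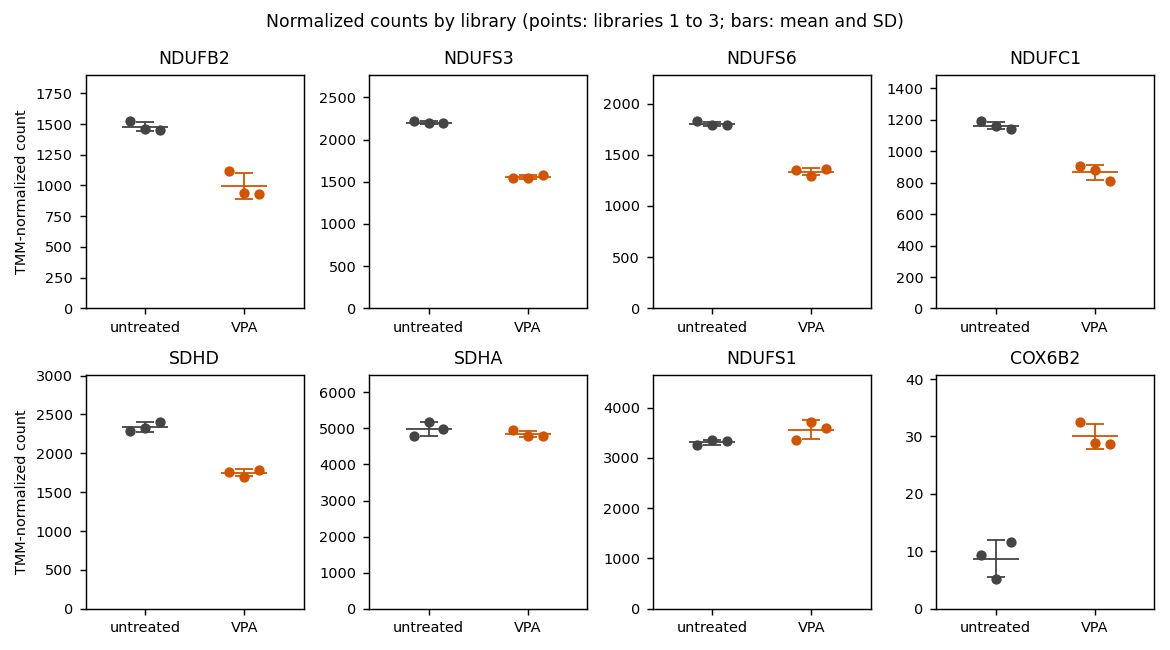
TMM-normalized count in each library (points, in the order 1 to 3) with the group mean and SD (bars), for untreated (grey) and VPA-treated cells (orange). Every axis starts at 0. NDUFB2, NDUFS3, NDUFS6, NDUFC1 and SDHD drop with no overlap, SDHA overlaps, NDUFS1 is slightly higher, and COX6B2 goes from 5.23 to 11.5 up to 28.7 to 32.6.

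The other nuclear-coded core subunits of complex I moved unevenly. NDUFV2, which holds an iron-sulfur cluster, fell by 0.27 on the log2 scale (edgeR adjusted p = 4.22e-05). It shares 90% of its exon bases with another annotated gene on the same strand. NDUFV1, the flavin subunit that takes electrons from NADH, had 4325 to 4524 normalized counts in untreated and 4361 to 4575 in VPA-treated libraries, a log2 fold change of 0.019 (SE 0.039, edgeR adjusted p = 0.689) with overlapping groups. NDUFS1, the largest core subunit, had 3252, 3351 and 3334 in untreated and 3355, 3722 and 3601 in VPA-treated libraries. Its groups were only just apart, with a log2 fold change of 0.10 (SE 0.043, edgeR adjusted p = 0.0404). That call was lost with DESeq2 (adjusted p = 0.214) and without any of 5 of the 6 libraries (adjusted p from 0.083 to 0.241). NDUFA6 and NDUFB1, supernumerary subunits, had log2 fold changes of 0.0073 and 0.094 and no call.

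The 8 tested NDUFAF genes, whose products help to build complex I and are not part of it, had a median log2 fold change of -0.18, and 7 were lower. That count was 4 with DESeq2, 3 without untreated replicate 2, and 4 without VPA-treated replicate 1 or 2. NDUFAF8 fell from 1165 ± 18.3 to 936.9 ± 77.7 (log2 fold change -0.31, SE 0.056, edgeR adjusted p = 4.81e-05). NDUFAF5, which modifies a core subunit, fell by 0.25 on the log2 scale and NDUFAF4 by 0.25. Another 11 assembly factors of complex I outside the symbol rule were tested, with 5 lower, 2 higher and a median of -0.030. The median is the value of COA1, which is also counted below among the assembly factors of complexes II to V. Among them ECSIT fell by 0.46 on the log2 scale (edgeR adjusted p = 2.07e-07) and DMAC2 by 0.22, while NUBPL, which delivers iron-sulfur clusters to complex I, rose by 0.26 (edgeR adjusted p = 0.00261) and TIMMDC1 by 0.15 (edgeR adjusted p = 0.0104).

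Complex II, succinate dehydrogenase, has only the 4 nuclear-coded subunits SDHA to SDHD, and 3 of them fell, by unequal amounts. SDHD, a membrane anchor (chr11:112086873-112095794), had 2284, 2329 and 2408 normalized counts in untreated and 1762, 1699 and 1788 in VPA-treated libraries, a log2 fold change of -0.42 (SE 0.043, edgeR adjusted p = 2.83e-08). SDHC, the other anchor, fell from 2958 ± 132 to 2530 ± 114 (log2 fold change -0.23, edgeR adjusted p = 0.000177). SDHB, the iron-sulfur subunit, fell from 1795 ± 108 to 1586 ± 69.1 (log2 fold change -0.18, edgeR adjusted p = 0.00395). SDHA, the flavin subunit that oxidizes succinate (chr5:218320-268746), had 4783, 5189 and 4971 in untreated and 4948, 4788 and 4787 in VPA-treated libraries. Its groups overlapped, and the log2 fold change was -0.041 (SE 0.041, edgeR adjusted p = 0.396). The difference between SDHD and SDHA was not tested. SDHA and SDHD share 69.4% and 23.8% of their exon bases with readthrough or unnamed genes on the same strand, and SDHD has 6 annotated pseudogenes.

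Complex III, the cytochrome bc1 complex, had 8 of 9 genes lower, with a median log2 fold change of -0.20. CYC1, the cytochrome c1 subunit, had 5210, 5151 and 4975 normalized counts in untreated and 4384, 3766 and 3926 in VPA-treated libraries (log2 fold change -0.34, SE 0.048, edgeR adjusted p = 2.22e-06). UQCRB, which helps to bind coenzyme Q, fell by 0.26 and UQCRC2, a large core protein, by 0.25 on the log2 scale. UQCR11, a small subunit, was the one without a call (log2 fold change -0.072).

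Complex IV, cytochrome c oxidase, had 11 tested genes, NDUFA4 counted with it since its product is a subunit of this complex. Of these 7 were lower and 1 higher, with a median log2 fold change of -0.13. COX4I1, the common isoform of subunit 4, fell from 7023 ± 51.3 to 6134 ± 188 (log2 fold change -0.20, edgeR adjusted p = 0.000182). COX7C and COX6B1 fell by 0.17 and 0.16 on the log2 scale. COX6C had 1741, 2157 and 2127 in untreated and 2177, 2152 and 2227 in VPA-treated libraries (log2 fold change 0.12, edgeR adjusted p = 0.108). Its groups overlapped, untreated replicate 1 being the low one. Without that library the log2 fold change was 0.023, and COX6C was called higher in 7 of the 16 fits. It has 17 annotated pseudogenes.

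COX6B2, the isoform of subunit 6B known from testis, went the other way from COX6B1. It had 9, 5 and 11 raw counts in untreated and 34, 30 and 30 in VPA-treated libraries, or 8.70 ± 3.20 and 30.1 ± 2.18 normalized counts. Its groups did not overlap, and the log2 fold change was 1.77 (SE 0.28, edgeR adjusted p = 1.33e-05). With a count minimum of 10 it passed the filter only through the VPA-treated libraries. It was thus tested only because it was high there, and its call is no separate support for the rise. Within libraries the log2 ratio of COX6B2 to COX6B1 went from -8.67 ± 0.52 to -6.73 ± 0.10, a difference of 1.95 that no scaling moves (two-sided exact permutation test p = 0.1, the smallest that 3 against 3 libraries allow, adjusted p = 0.3 over 3 ratios). COX6B1 remained the main isoform by far. COX6B2 shares 29.9% of its exon bases with another annotated gene on the same strand.

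Complex V had 14 of 17 tested genes lower and a median log2 fold change of -0.16. In the catalytic F1 part 3 of 5 genes were lower, in the peripheral stalk 4 of 4, and in the membrane part 7 of 8. ATP5F1B, the catalytic beta subunit and the gene with the most counts of all 84, had 20918, 22677 and 22707 normalized counts in untreated and 18078, 17988 and 18191 in VPA-treated libraries. Its groups were apart, and the log2 fold change was -0.29 (edgeR adjusted p = 5.31e-06). ATP5F1C, the gamma subunit of the central shaft, fell by 0.24 and ATP5PB, a peripheral stalk subunit, by 0.19 on the log2 scale. ATP5MC1, ATP5MC2 and ATP5MC3 code for the same mature c-ring protein, and all were lower, by 0.12, 0.17 and 0.12 on the log2 scale, the call of ATP5MC1 being lost without any of 4 of the 6 libraries. The ratios among them were close in both groups, with a difference of 0.0043 for ATP5MC1 to ATP5MC3 (exact permutation p = 0.9, adjusted p = 0.9) and -0.047 for ATP5MC2 to ATP5MC3 (exact permutation p = 0.4, adjusted p = 0.6).

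Per kilobase of the canonical GENCODE 44 transcript, untreated levels differed widely between genes of a complex. The median was 4031 normalized counts per kb in complex IV, 3038 in V, 2585 in III, 2372 in the core of I, 2006 in its supernumerary subunits, 1809 in II and 294.8 in the assembly factors. Complex II was the most even, with 1748 counts per kb for SDHD, 1768 for SDHB, 1850 for SDHA and 2262 for SDHC, a 1.29-fold range. In VPA-treated cells the same genes had 1307, 1562, 1798 and 1934 counts per kb. The lowest levels were those of COX6B2 (5.55) and ATP5F1E (30.0). The canonical transcripts of ATP5F1E (3610 bases) and NDUFS1 (11660 bases) are long, and where cells use shorter forms the level per kb is understated, and reads that fit several genes or pseudogenes were set aside by the counting, so these levels are rough.

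**Figure D4:**
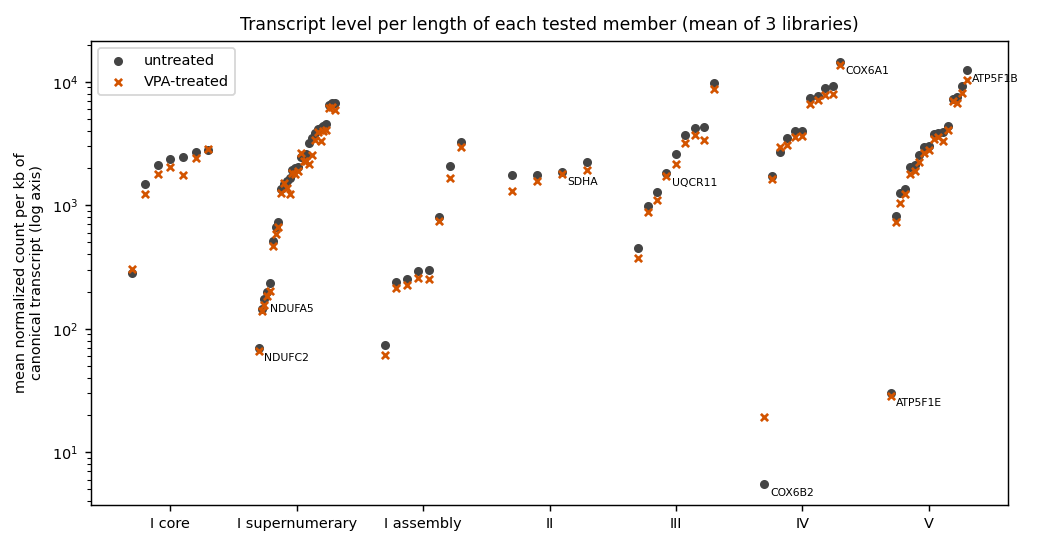
Mean normalized count per kilobase of canonical transcript for each tested gene, on a log axis, in untreated (circles) and VPA-treated cells (crosses), by complex. The 4 complex II genes lie within a 1.29-fold range in untreated cells, while COX6B2 and ATP5F1E lie far below the rest of their complexes.

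Lists of genes around oxidative phosphorylation were followed in the same fit. Of all tested genes 30.0% were lower and 32.9% higher, but these shares differed with abundance. At a mean of at least 1000 normalized counts 57.4% were lower and 14.6% higher, and from 100 to 1000 the shares were 25.4% and 38.9%. The lists were not matched for abundance, so a share of lower genes above 30.0% is not read as particular to a list. Of 12 nuclear regulators of mitochondrial biogenesis, 8 were lower and 1 was higher, with a median log2 fold change of -0.26. PPRC1, a coactivator of the PGC-1 family, had 4386, 4080 and 4099 normalized counts in untreated and 2967, 2958 and 2958 in VPA-treated libraries (log2 fold change -0.50, SE 0.041, edgeR adjusted p = 7.40e-10). TFAM, which packs and transcribes mitochondrial DNA, had 2365, 2310 and 2277 before and 1698, 1781 and 1826 after VPA (log2 fold change -0.39, edgeR adjusted p = 9.62e-08). Both groups were apart in each of these genes. PPARGC1A, which codes for the coactivator PGC-1 alpha, had 77.6, 64.9 and 72.4 in untreated and 162.9, 171.5 and 160.8 in VPA-treated libraries, and rose by 1.20 on the log2 scale (SE 0.11, edgeR adjusted p = 8.56e-09).

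The transcription factors GABPA and NRF1 fell by 0.31 and 0.29 on the log2 scale, GABPB1, the partner of GABPA, by 0.25 and the nuclear receptor ESRRA by 0.24. TFB2M and POLRMT, which start and carry out mitochondrial transcription, fell by 0.29 and 0.26. YY1, PPARGC1B and TFB1M had log2 fold changes of -0.038, -0.00075 and 0.11 and no call. PPRC1 and TFAM stayed lower and PPARGC1A stayed higher in all 16 fits, while GABPA and NRF1 lost their calls under ribosomal protein scaling (adjusted p = 0.563 and 0.800). The list had 7 lower and 2 higher genes with upper-quartile scaling, 4 and 4 with library totals and 2 and 4 with ribosomal protein scaling. With library totals PPARGC1B, YY1 and TFB1M were higher (edgeR adjusted p = 0.0177, 0.0326 and 0.00170). GABPB1, ESRRA, TFB2M and POLRMT were then not called (edgeR adjusted p = 0.220, 0.190, 0.0546 and 0.0677). Nor were these 4 called with ribosomal protein scaling (edgeR adjusted p = 0.872, 0.723, 0.798 and 0.931). GABPB1 was lower in 10 of the 16 fits.

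**Figure D5:**
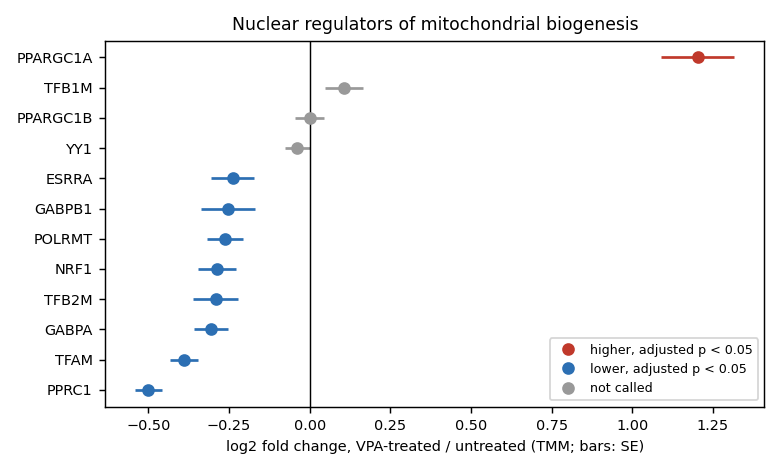
Log2 fold change of the 12 nuclear regulators, VPA-treated over untreated, with the standard error as a bar. Blue marks lower, red higher and grey no call at an adjusted p under 0.05. PPARGC1A lies at 1.20, and PPRC1 and TFAM are lowest at -0.50 and -0.39.

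Of 41 tested assembly factors of complexes II to V, 21 were lower and 1 higher (median -0.15). BCS1L, which inserts the iron-sulfur protein into complex III, fell by 0.37 and COA6, which serves copper delivery to complex IV, by 0.37 on the log2 scale, while SDHAF3 rose by 0.20. Of 14 genes of cytochrome c and coenzyme Q synthesis 5 were lower and 3 higher (35.7% and 21.4%, median -0.060), with the coenzyme Q enzymes COQ7 and COQ6 lower by 0.39 and 0.30 and PDSS2 and COQ8B higher by 0.37 and 0.25. Of 5 genes of supercomplexes, inhibitors and paralogs outside the rule 2 were lower and 1 higher, with ATP5IF1, the ATP synthase inhibitor, lower by 0.24 and HIGD2A by 0.39, and STMP1 higher by 0.15. Of 5 carriers and channels 4 were lower (median -0.24), VDAC2 and VDAC1 of the outer membrane by 0.28 and 0.25.

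Lists of fuel pathways that feed the chain were mixed. Of 16 genes listed for the tricarboxylic acid cycle 9 were lower and 4 higher (median -0.097). The higher ones were IDH2 and the genes of the cytosolic enzymes ACO1, IDH1 and MDH1, which act outside the mitochondrial cycle. IDH3B, part of the NAD-linked isocitrate dehydrogenase, fell by 0.42 and citrate synthase, CS, by 0.31 on the log2 scale, while the NADP-linked IDH1 and IDH2 rose by 0.60 and 0.40. Of 11 genes of pyruvate entry 3 were lower and 3 higher (27.3% each, median 0.041). DLAT and PDHX of the pyruvate dehydrogenase complex fell by 0.31 and 0.18, while PDK4, a kinase that inactivates the complex, rose by 1.46 and PDP1, a phosphatase that activates it, by 0.56. Of 17 glycolysis genes 11 were lower and 4 higher (median -0.21), with ENO1 and GAPDH lower by 0.40 and 0.40 and ENO2 and PFKP higher by 1.39 and 0.94. With library totals the medians of the tricarboxylic acid cycle, of cytochrome c and coenzyme Q synthesis, of the other complex I assembly factors and of the paralogs outside the rule turned to 0.034, 0.072, 0.10 and 0.078, upper-quartile scaling turned the last 3 of these to 0.0051, 0.035 and 0.011, and with ribosomal protein scaling the median of every list was above 0.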

How the data were processed

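The authors cleaned reads of strand-specific mRNA libraries with SOAPnuke and mapped them with STAR on hg38 (2.7.10b in the submitters' processing notes). Reads per gene were obtained with htseq-count (HTSeq 2.0.1 in those notes). The deposited values are raw counts per gene. The annotation and strand setting are not given in the sources used here. Summary lines of the counting, which name no gene, were left out: per library 6.80% to 7.69% of reads off any gene, 1.97% to 2.10% ambiguous and 2.81% to 2.92% without a unique place.

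Differences were tested by edgeR (4.0.16, R 4.3.3; TMM, filterByExpr with a count minimum of 10, robust quasi-likelihood fit on condition, prior count 0.125, Benjamini-Hochberg adjustment over 15298 genes). Standard errors are log2 fold changes over the root of F. Isoform ratios used a prior count of 0.5 and an exact permutation test. The edgeR and DESeq2 fits were also run on simulated counts with few genes changed, as many up as down. Such counts cannot speak to the choice of scaling. Alternatives were DESeq2 1.42.0, 4 other scalings, other filters, an FDR of 0.01, glmTreat, the replicate block and left-out libraries. Named genes were those past the study's thresholds, the 3 of smallest adjusted p in each direction per complex, complex II, isoform pairs, the 3 highest and lowest log2 fold changes with a mean of at least 100, X-linked members, all regulators and 2 genes per direction in other lists; UQCR11, ATP5F1E and the genes named for overlap or length were added after their values were seen. The members and lists were chosen with earlier results of these data known. Genes were matched to RefSeq (GRCh38.p14) by symbol (92 of 93), and promoter motifs were searched on both strands. Values of 1 member are not reported here, though it is counted.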

Additional observations from a re-analysis of the deposited data

How the results depend on the processing

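With DESeq2, DESeq2 size factors, no filter or an adjusted p under 0.01, 1 gene was higher. Upper-quartile scaling gave 4 higher and 31 lower genes, library totals 7 and 13, and ribosomal protein scaling 37 and 5. The median log2 fold change was -0.185 with DESeq2, -0.174 with DESeq2 size factors, -0.0954 with upper quartile, -0.0294 with library totals, 0.108 with ribosomal protein scaling, -0.182 with no filter and -0.127 with a mean of at least 50 counts, a filter that dropped COX6B2 and so left 0 genes up at the thresholds of the study. Leaving out libraries, one at a time or (chosen after seeing the data) both of number 1, gave 1 to 3 higher genes, 46 to 62 lower genes and medians from -0.174 to -0.142. Of 494 comparisons over named genes and settings, 405 kept the call or its absence (some uncalled values changed sign). Another 45 lost the call and 22 gained one, with the sign kept. The remaining 22 reversed, which here means a changed sign with a call before or after, not calls in both directions. These were all under library totals or ribosomal protein scaling, which shift all genes by about the same amount.

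The reversed log2 fold changes were ATP5F1C 0.0281, ATP5MC1 0.148, ATP5MC2 0.0968, ATP5MC3 0.146, ATP5PB 0.0780, COX4I1 0.0738, COX6A1 0.184, COX6B1 0.113, COX7A2 0.134, COX7C 0.1003, COX8A 0.163, NDUFAF4 0.0192, NDUFAF5 0.0143, SDHA 0.228, SDHB 0.0911, SDHC 0.0426, UQCRB 0.0116 and UQCRC2 0.0177 with ribosomal protein scaling, and ATP5MC1 0.0112, ATP5MC3 0.00810, COX8A 0.0256 and SDHA 0.0909 with library totals. With ribosomal protein scaling, ATP5F1C, ATP5PB, COX4I1, COX7C, NDUFAF4, NDUFAF5, SDHB, SDHC, UQCRB and UQCRC2 had no call in the new direction. Nor had ATP5MC1, ATP5MC3 and COX8A with library totals. SDHA and COX6A1 had no call under TMM. SDHA was lower without both libraries of number 1 (-0.088, edgeR adjusted p = 0.0253).

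The labels do not say that a replicate number marks a shared culture or day, and the numbers were not taken as pairs. Same-numbered libraries deviated together with r = 0.116, 0.0157 and 0.0649 over all tested genes, 0.319, 0.0875 and 0.24 over genes averaging 50 or more counts, and 0.636, 0.234 and 0.568 over the 84 genes, where each library correlated best with its own number. This is a hint from the data, not from the design. With the replicate number as a block, 68 genes were lower and 3 higher, COX6C being the added higher gene (edgeR adjusted p = 0.00701), UQCR11 was lower (edgeR adjusted p = 0.0460, complex III then 9 of 9), and 21 of the 28 supernumerary subunits of complex I were lower in place of 13. Depth limits COX6B2, COX8C and ATP5MGL, with at most 119 counts over the 6 libraries.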

Other observations

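Genes that share a start region with an oxidative phosphorylation gene can be read side by side with it. Promoter sequences were at hand for 75 oxidative phosphorylation genes, not all of them tested. Of these, 29 (38.7%) had another gene starting on the other strand within 1000 bases upstream or 100 downstream. The share was 25.4% over 11739 tested genes. In 22 pairs both genes were tested, and 13 of the partners were lower and 0 higher at an adjusted p under 0.05 (30.0% and 32.9% of all tested genes), with a median log2 fold change of -0.22 over the 22. Over these pairs r was 0.112 and rho -0.051, a description over genes of the same 6 libraries. NDUFS3 and KBTBD4 had log2 fold changes of -0.50 and -0.53, while NDUFS1 was at 0.10 beside EEF1B2, a translation elongation factor gene, at -0.48, and UQCRH was at -0.16 beside LRRC41 at -0.73. These pairs were chosen after their values were seen.

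The libraries of number 1 stood apart with GC content. Among the 84 genes the deviation of a gene from its group mean went with the GC content of its transcript with r = 0.465 in untreated library 1 and 0.642 in VPA-treated library 1 (0.308 and 0.501 over 11961 genes with a mean of at least 50). Both libraries of number 1 were the highest of their groups for 26 of the 84 genes (31.0%), against 20.6% of 12196 genes. The log2 fold change itself had r = 0.036 with GC content and 0.075 with log2 transcript length over the 84 genes. Without both libraries 62 genes were lower and 2 higher.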
